A study of Danio rerio with 21 samples.

Results

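Transcripts in biotagged macrophage nuclei of zebrafish hearts were compared between ventricular resection and sham surgery at 5 days post injury (5 dpi). The comparison holds 4 of the 21 libraries of the series, chosen by their labels: resection 1 and 2, and sham 2 and 3. In the resection group the apex of the ventricle had been cut away, whereas in the sham group the ventricle had been exposed and left uninjured. All 4 libraries came from adult fish of the ox133 line, whose alleles are TgBAC(mpeg1:BirA-Citrine), a macrophage BAC that expresses a biotin ligase, and bactin:Avi-Cerulean-Rangap, a ubiquitously expressed nuclear envelope protein with an Avi tag. Nuclei of cells that express both the ligase and the Avi-tagged protein are biotinylated and can be pulled down with streptavidin. Every group, sham included, carries the same alleles, and the choice of nuclei rests on where the mpeg1 BAC is active. What was merged in the sham 2 library, which has that word in its label, is not stated. By the study's methods 1 heart went into each sample, so the 2 libraries of a group are taken to be different hearts, and the p-values measure the spread between them.

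Macrophages enter an injured heart, take up dead cells and debris, and release cytokines, growth factors, proteases and matrix. The zebrafish heart regrows muscle after resection, while the wound is covered by a fibrin clot and by activated epicardium and endocardium. Vagal and other cardiac nerves, with their myelinating glia, enter the heart at its base. Gene names in capitals below are those of the human orthologue as the annotation gives them, and an Ensembl ID stands beside a name that several zebrafish genes share.

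Total counts assigned to genes were 27628986 and 10577395 in resection 1 and 2, against 19762689 and 21565403 in sham 2 and 3. At least 1 count was seen for 17582 and 18663 genes in the resection libraries, against 20217 and 15027 genes in sham 2 and 3, so sham 3 showed the fewest genes at the second highest depth. Over 22966 genes, log2(CPM + 1) of the resection libraries correlated with each other at r = 0.885 and with sham 2 at 0.914 and 0.908. With sham 3 they correlated at 0.765 and 0.788, and the shams correlated with each other at 0.800, which describes these libraries and is across genes. In the pair of shams 408 genes had 100 or more counts in sham 2 and 0 in sham 3, and 70 genes the reverse. Sham 3 therefore stood apart from the other 3 libraries, and values without it, or without sham 2, are given beside the results that turn on it.

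**Figure D1:**
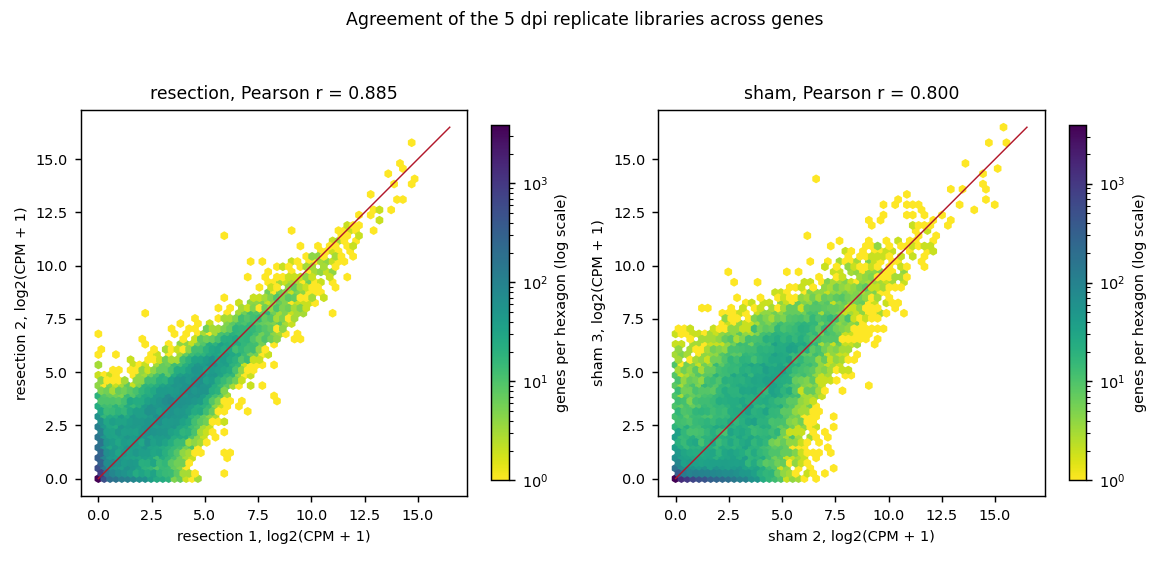
Each panel plots log2(CPM + 1) of 1 library against that of its replicate over genes, with darker hexagons holding more genes: resection 1 against resection 2, and sham 2 against sham 3. The resection pair lies closer to the diagonal (r = 0.885) than the sham pair (r = 0.800), in which many genes of sham 2 lie at 0 in sham 3.

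Transcripts of cardiomyocytes were abundant in all 4 libraries. The 31 genes of a cardiomyocyte list took 16.9% and 16.9% of counts in resection, against 22.8% and 16.7% in sham, whereas 35 macrophage and leukocyte genes took 0.0826% and 0.0483%, against 0.018% and 0.0859%. The macrophage label was therefore checked gene by gene. MPEG1 (ENSDARG00000055290, perforin-2, whose BAC drives the biotin ligase) was at 19.8 and 5.75 CPM in resection, against 1.12 and 1.99 CPM in sham. Its paralog mpeg1.2 was at 0.955 and 0.16 CPM, against 0.292 and 0 CPM, and the macrophage colony stimulating factor receptor csf1ra was at 0.33 and 0.0799 CPM, against 1.22 and 2.67 CPM. The invariant chain gene cd74a was well covered, with 288 and 117 CPM in resection, against 43.2 and 535 CPM in sham. MPEG1 was thus higher in both resection libraries, and the shams spanned the resection values of cd74a. In these bulk libraries fewer cells of a type and less RNA per cell cannot be told apart. The part of cardiomyocyte or other non-macrophage RNA in any result below was not tested.

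**Figure D2:**
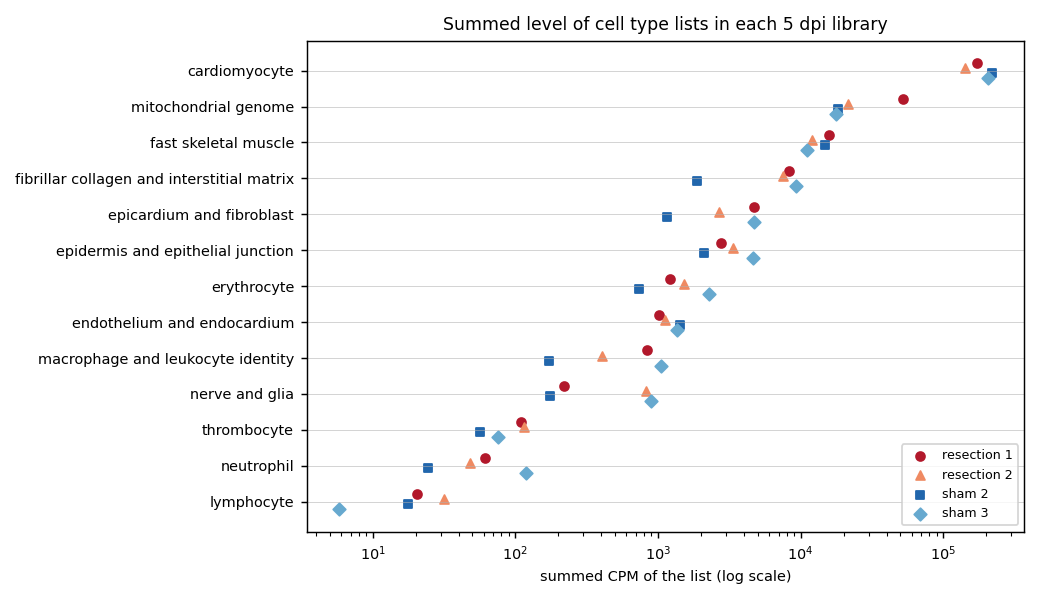
Summed CPM of cell type marker lists, and of the mitochondrial and matrix lists, in each library, on a log axis, with resection 1 and 2 drawn above sham 2 and 3 in each row. Cardiomyocyte genes sum to 171337 and 142731 CPM in resection, against 218633 and 204080 CPM in sham, and the macrophage and leukocyte list sums to 838 and 408 CPM in resection, against 173 and 1052 CPM in sham.

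The main question was which genes differed between resection and sham nuclei at 5 dpi. Of 15423 genes with enough counts to be tested, edgeR's quasi-likelihood test with Benjamini-Hochberg adjustment at 0.05 called 0 higher and 0 lower in resection (0.0% each), and the smallest adjusted p was 0.0881. At an unadjusted p under 0.05, 115 genes (0.746%) were higher and 388 genes (2.52%) were lower. DESeq2, the tool of the study, called 48 higher (0.331% of the 14506 genes it gave an adjusted p) and 107 lower (0.738%). Both shams were at or under 3 counts in 35 of the 48, and both resection libraries in 78 of the 107. The spread between replicates was large, with a biological coefficient of variation of 1.06. Of the 388 genes that were lower, 190 were more than 10 times higher in sham 3 than in sham 2, and the groups did not overlap in 255. Of the 115 that were higher, the groups did not overlap in 113, and both shams were at or under 3 counts in 51. Among all genes tested, the groups did not overlap in 17.2% (resection higher) and 14.2% (resection lower). Without sham 3 edgeR called 28 genes higher and 13 lower. Without sham 2 it called 895 and 704, and the median fold change of all genes moved to 0.77 on the log2 scale, against 0.08 with both shams. In what follows, "higher" and "lower" describe values that did not pass the adjusted edgeR test. The edgeR adjusted p was under 0.9 for 5 genes (si:ch211-214b16.4, mbpa, SLA (2 of 2), THBS4 and actc1c) and rounded to 1 for the others. DESeq2's adjusted p is given where that tool made a call, as the value of an alternative test whose calls edgeR did not make. Below, p under 0.05 means the unadjusted edgeR p. Counts of list members at that limit are to be read beside 0.746% higher and 2.52% lower over all genes tested. Fold changes are resection over sham. Errors are approximate standard errors, the size of the log2 fold change divided by the square root of edgeR's F statistic.

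**Figure D3:**
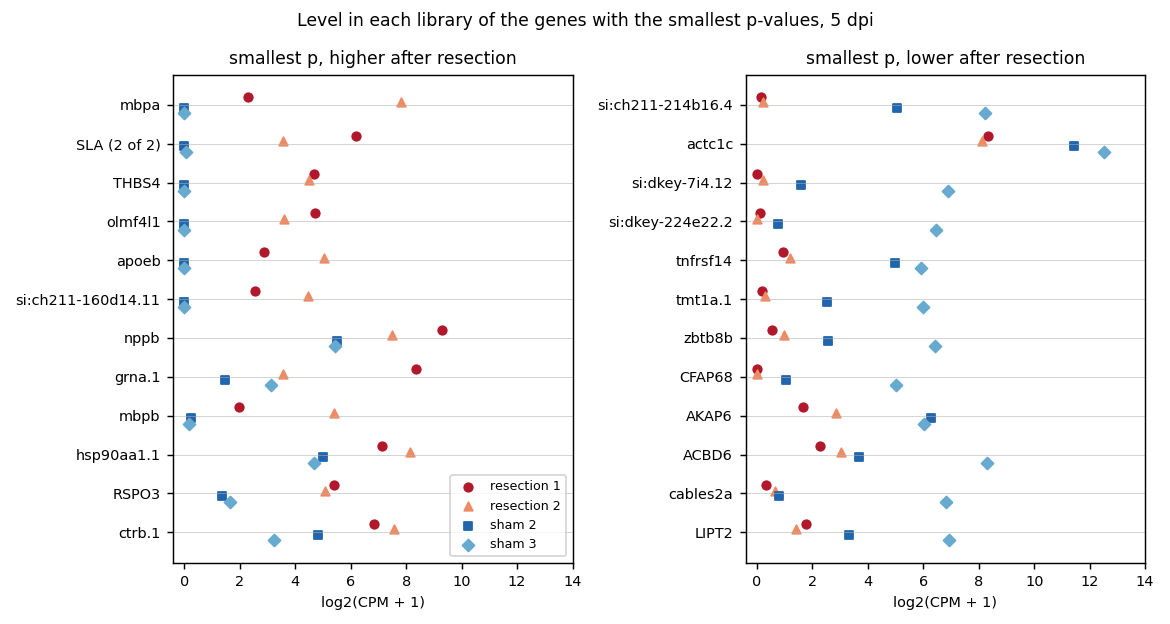
Level in each library, as log2(CPM + 1), of the 12 named genes with the smallest edgeR p in each direction at 5 dpi, with resection points (red shades) drawn slightly above sham points (blue shades) in each row. Among higher genes mbpa, THBS4, olmf4l1, apoeb and si:ch211-160d14.11 have no count in either sham, and among lower genes actc1c has 324 and 279 CPM in resection, against 2793 and 5924 CPM in sham.

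A myelin gene had the smallest p among higher genes. Myelin basic protein mbpa, which compacts the myelin sheath, had 3.93 and 226 CPM in resection and no count in sham. Against a floor of 3 counts per library, this made it at least 727-fold higher (edgeR adjusted p = 0.389, DESeq2 adjusted p = 2.63e-07). Its paralog mbpb had 2.94 and 40.7 CPM, against 0.194 and 0.114 CPM (DESeq2 adjusted p = 0.00163), and the proteolipid plp1b had 2.57 and 24.8 CPM, against 0.778 and 0.341 CPM. In all 3 genes the groups did not overlap and resection 2 held most of the signal. The peripheral myelin gene mpz was at 0 in resection 1 and at 54.6 CPM in resection 2, with no count in sham, and DESeq2 called it on that library (adjusted p = 0.000252). The same library alone held the cholinergic genes, chosen here after their values were seen. SLC5A7 (choline uptake) had 35.6 CPM, SLC18A3 (vesicular acetylcholine transport) 18.1 CPM and CHAT (acetylcholine synthesis) 8.07 CPM in resection 2, each with 0 counts in resection 1 and in both shams. SNAP25, a synaptic SNARE protein (ENSDARG00000020609), likewise had 0.551 and 35.2 CPM, against 0.681 and 0.0568 CPM, so resection 1 lay between the shams. The synaptic calcium sensor SYT1 went the other way, with 33.0 and 83.3 CPM, against 38.8 and 801 CPM, and its log2 fold change of -2.85 became 0.57 without sham 3. Of 15 tested genes in the nerve and glia list, 5 (33.3%) were higher and 1 (6.67%) was lower at p under 0.05. Over all genes tested these shares were 0.746% and 2.52%. In 8 (53.3%) of the 15 both resection libraries lay above both shams and in 0 below, beside 17.2% and 14.2% of all genes tested. The list had a median log2 fold change of 1.41, beside 0.08 over all genes. The median was 4.4 without sham 2, where all genes had 0.77, and 1.3 without sham 3, where all genes had 0.08. The summed level of the list was 220.5 and 819 CPM in resection, against 174 and 895 CPM in sham.

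Most matrix and adhesion genes named here fell into 2 patterns. In some both resection libraries lay above both shams, and of these THBS4, vcana and ITGA8 were near 0 in sham. THBS4 (ENSDARG00000020072), a matricellular thrombospondin, had 24.3 and 21.8 CPM in resection and no count in sham, at least 146-fold higher (edgeR adjusted p = 0.716, DESeq2 adjusted p = 7.51e-06). The proteoglycan versican vcana had 3.3 and 10.4 CPM and no count in sham, at least 43.3-fold higher (DESeq2 adjusted p = 0.00494). The integrin subunit ITGA8, chosen after its values were seen, had 15.5 and 12.5 CPM, against 0.146 and 0.227 CPM (DESeq2 adjusted p = 0.00265). SPARC, a collagen-binding glycoprotein, had 426 and 215 CPM, against 70.0 and 85.2 CPM, with a log2 fold change of 2.04 ± 0.76 and of 1.99 and 2.19 without sham 2 and without sham 3. In these 4 genes every resection library lay above both 5 dpi shams. Shams of other days, beside 5 dpi resection, are given on a CPM scale set over all 21 libraries. THBS4 had 0, 16.7 and 0 CPM at 1 dpi and 0 to 1.64 CPM at 14 dpi, beside 23.4 and 20.1 CPM. For vcana these were 11.9, 0 and 0 CPM, 0 to 7.08 CPM, and 3.18 and 9.55 CPM. ITGA8 had no count at 1 dpi and 0.566 to 11.9 CPM at 14 dpi, beside 14.9 and 11.5 CPM. SPARC had 79.7, 391 and 265 CPM and 64.8 to 187 CPM, beside 410 and 197 CPM.

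The fibrillar collagens lay between the shams instead. The collagen I chain col1a1a had 1073 and 864 CPM in resection, against 197 and 1172 CPM in sham, and its log2 fold change was 0.50 ± 0.81, with -0.20 without sham 2 and 2.29 without sham 3. COL1A2 had 1193 and 1398 CPM, against 281 and 1678 CPM (0.40 ± 0.81), with -0.30 without sham 2 and 2.2 without sham 3. Fibronectin FN1 (ENSDARG00000006526) had 1018 and 1465 CPM, against 208 and 1078 CPM, so resection 2 lay above both shams. Basement membrane COL4A1 had 470 and 564 CPM, against 256 and 580 CPM. Which sham was used thus set the direction of collagen I. Over 36 tested genes of the fibrillar and interstitial matrix list, 3 (8.33%) were higher and 1 (2.78%) was lower at p under 0.05. Over all genes tested these shares were 0.746% and 2.52%. In 9 of the 36 both resection libraries lay above both shams and in 0 below, beside 17.2% and 14.2% of all genes tested. The median log2 fold change of the list was 0.54. It was -0.12 without sham 2, where all genes had a median of 0.77, and 2.19 without sham 3, where all genes had 0.08. The lower member was col5a3a, at 24.8 and 32.8 CPM, against 24.3 and 253 CPM, with a log2 fold change of -2.26 that became 0.24 without sham 3. None of the 24 basement membrane genes and none of the 25 matrix proteases and inhibitors that were tested had p under 0.05. Both resection libraries lay above both shams in 5 of the 24 basement membrane genes and below in 3. Among the 25 proteases and inhibitors they lay above in 8 and below in 3.

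Secreted signals included RSPO3, an R-spondin that amplifies Wnt signalling, at 41.0 and 33.1 CPM in resection, against 1.56 and 2.1 CPM in sham. Its log2 fold change was 4.34 ± 1.26 (DESeq2 adjusted p = 0.0262), with 4.21 and 4.56 without sham 2 and without sham 3. The chemokine cxcl12a, which guides leukocytes and progenitors through Cxcr4, had 52.8 and 22.5 CPM, against 5.15 and 3.86 CPM (3.06 ± 1.18). The granulin grna.1 had 324 and 10.8 CPM, against 1.80 and 7.72 CPM (5.14 ± 1.38, DESeq2 adjusted p = 0.0463), so that resection 2 lay close to sham 3. Its log2 fold change was 1.23 to 6.54 with a library left out. On a CPM scale set over all 21 libraries, grna.1 had 108, 170 and 562 CPM in 1 dpi sham. At 14 dpi the shams held 0 to 46.8 CPM, and 5 dpi resection had 312 and 9.92 CPM. Across 19 tested chemokines and receptors, cxcl12a was the 1 gene with p under 0.05. In 9 of the 19 (47.4%) both resection libraries lay above both shams and in none below, beside 17.2% and 14.2% of all genes tested. The median log2 fold change of the list was 1.33. It was 3.17 without sham 2, where all genes had 0.77, and 2.21 without sham 3, where all genes had 0.08.

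Macrophage and complement genes were low but in part higher after resection. Apolipoprotein apoeb, a lipid carrier made by phagocytes, had 6.39 and 32 CPM and no count in 5 dpi sham, at least 121-fold higher (DESeq2 adjusted p = 5.78e-05). Shams of other days did hold apoeb, with 0, 60.9 and 41.4 CPM at 1 dpi and 0 to 37.9 CPM at 14 dpi. On that scale, set over all 21 libraries, 5 dpi resection had 6.15 and 29.4 CPM. The complement subunit c1qc had 54.3 and 22.2 CPM, against 5.49 and 0.0568 CPM (3.78 ± 1.59). Its partner c1qb had 38.1 and 22 CPM, against 3.94 and 85.6 CPM, and lay between the shams. MPEG1 had a log2 fold change of 3.03 ± 1.71. The scavenger receptor marco had 13.6 and 4.07 CPM, against 5.35 and 95.1 CPM, with a log2 fold change of -2.50 ± 1.29 that was -3.33 without sham 2 and turned to 0.72 without sham 3. The adaptor SLA (2 of 2), which tunes antigen receptor signalling in mammalian lymphocytes, had 71.4 and 10.7 CPM, against 0 and 0.0568 CPM, at least 259.7-fold higher (edgeR adjusted p = 0.533, DESeq2 adjusted p = 3.99e-05). On a CPM scale set over all 21 libraries, SLA (2 of 2) had 0, 37.8 and 117 CPM in 1 dpi sham. Of the genes with no count in either sham, olmf4l1 had 25.1 and 10.9 CPM in resection (at least 114-fold higher) and the uncharacterised si:ch211-160d14.11 had 4.81 and 21.2 CPM (at least 82.2-fold higher). The markers of macrophages thus did not move together. Of 29 tested macrophage and leukocyte genes 2 (6.90%) were higher and 0 lower at p under 0.05, with a median of 0.86. Over all genes tested, 0.746% were higher and 2.52% lower. The median was 0.39 without sham 2, where all genes had 0.77, and 2.23 without sham 3, where all genes had 0.08. In 9 (31.0%) both resection libraries lay above both shams and in 1 (3.45%) below, beside 17.2% and 14.2% of all genes tested.

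The inflammatory cytokines named here were low in most libraries, apart from tnfb in resection 1. The gene il1b was at 0.257 and 0.0799 CPM, against 0.875 and 0 CPM, and tnfa at 1.73 and 0 CPM, against no count in sham. On a CPM scale set over all 21 libraries, tnfb had 9.83 and 0 CPM, against 0.137 and 0 CPM. On that scale il6 had 0 and 1.18 CPM, against no count in sham. At this depth 3 counts correspond to 0.110 and 0.240 CPM in resection, against 0.146 and 0.170 CPM in sham, a limit that covers counting error only. The receptor il6r had 1.51 and 0.16 CPM, against 0.243 and 115 CPM. It was the 1 of 20 tested pro-inflammatory genes with p under 0.05, and its log2 fold change of -6.06 turned to 1.76 without sham 3. The median of that list was 0.39. It was 1.45 without sham 2, where all genes had 0.77, and 0.84 without sham 3, where all genes had 0.08. In 7 of the 20 (35.0%) both resection libraries lay above both shams and in 1 (5.0%) below. Of all genes tested, 17.2% and 14.2% did so. Among 39 resolution and repair genes 0 were higher and 1 was lower at p under 0.05. The lower gene was the clearance receptor stab1, at 5.77 and 9.11 CPM, against 9.58 and 141 CPM (-3.34, and -0.37 without sham 3). The list had a median of 0.51. In 11 of the 39 (28.2%) both resection libraries lay above both shams and in 4 (10.3%) below. Neutrophil genes were sparse, with the peroxidase mpx at 1 count or none in each library. Of the 7 tested genes of the neutrophil list 2 (28.6%) were higher and 1 (14.3%), il6r, was lower at p under 0.05. Over all genes tested these shares were 0.746% and 2.52%. In 4 of the 7 (57.1%) both resection libraries lay above both shams and in none below, beside 17.2% and 14.2% of all genes tested. The median log2 fold change was 1.94. It was 6.07 without sham 2, where all genes had 0.77, and 1.76 without sham 3, where all genes had 0.08. The higher genes were NCF1, a subunit of the phagocyte oxidase, at 4.48 and 0.639 CPM with no count in sham, and the carboxypeptidase cpa5, at 17.3 and 17.3 CPM, against 1.60 and 0 CPM. Other members did not follow. On a CPM scale set over all 21 libraries, npsn had 0 and 0 CPM, against 0.320 and 0.0511 CPM. LECT2 had 0.248 and 0 CPM, against 0.274 and 0.919 CPM, and lyz had 2.19 and 0 CPM, against 0 and 0.0511 CPM. The list values therefore do not describe neutrophils as a cell type. Of 38 lysosome and phagocytosis genes none had p under 0.05. In 12 (31.6%) both resection libraries lay above both shams and in 3 (7.89%) below, beside 17.2% and 14.2% of all genes tested. Among the 12 was the protease CTSD at 112 and 66.1 CPM, against 41.9 and 21.7 CPM (1.49 ± 0.86).

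The natriuretic peptide nppb had 629 and 180 CPM, against 44.2 and 42.4 CPM, with a log2 fold change of 3.22 ± 0.84. Its relative nppa had 1768 and 1596 CPM, against 743 and 889 CPM (1.04 ± 0.68). The chaperone hsp90aa1.1, which folds myosin in zebrafish muscle, had 139 and 280 CPM, against 30.8 and 24.8 CPM (2.91 ± 0.82). Its log2 fold change was 3.15 and 2.75 without sham 2 and without sham 3. For nppb and hsp90aa1.1 the shams lay close together, and the resection libraries differed from each other by more than the shams did. A pair of Hsp70 chaperone genes, chosen after their values were seen, was lower. The heat-inducible hsp70.1 had 0.0734 and 0.479 CPM, against 1.36 and 25.1 CPM (DESeq2 adjusted p = 0.0463), with a log2 fold change of -5.61 that was -2.32 without sham 3. HSPA2 (ENSDARG00000092362) had 0.514 and 0.799 CPM, against 2.43 and 46.8 CPM (DESeq2 adjusted p = 0.0347), with -5.22 and, without sham 3, -1.89. Their relatives hsp70.3 and hsp70l overlapped, hsp70.3 with 7.82 and 0.399 CPM, against 2.77 and 3.35 CPM, and hsp70l with 4.70 and 0.959 CPM, against 9.97 and 4.2 CPM.

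Both forms of the enzyme that starts heme synthesis were higher in the resection libraries. ALAS1, the housekeeping form, had 4884 and 2551 CPM, against 574 and 753 CPM (2.49 ± 0.74), and the erythroid form alas2 had 137 and 209 CPM, against 40.7 and 36.4 CPM (2.16 ± 0.79). On a CPM scale set over all 21 libraries, other shams held 421, 1437 and 2274 CPM (1 dpi) and 241 to 522 CPM (14 dpi) of ALAS1. For alas2 they held 27.3, 68.3 and 9.24 CPM and 40.8 to 559 CPM. On that scale 5 dpi resection had 4703 and 2347 CPM of ALAS1 and 132 and 192 CPM of alas2. The hemoglobin chain hbaa1 overlapped, with 476 and 464 CPM, against 312 and 999.8 CPM. Of 11 tested erythrocyte genes alas2 was the 1 (9.09%) with p under 0.05, beside 0.746% higher and 2.52% lower over all genes tested. BHLHE40, a transcriptional repressor that acts in the circadian clock, had 188 and 156 CPM, against 40.4 and 24.7 CPM (2.4 ± 0.80), and NR1D1, a nuclear receptor that represses clock genes, had 15.9 and 10.8 CPM, against 0.243 and 0 CPM (DESeq2 adjusted p = 0.00513). Shams of other days held 122, 165 and 22.8 CPM (1 dpi) and 68.3 to 131 CPM (14 dpi) of BHLHE40. For NR1D1 they held 0.235, 31.3 and 0 CPM and 0.354 to 4.78 CPM. On that scale, set over all 21 libraries, 5 dpi resection had 181 and 143 CPM of BHLHE40 and 15.3 and 9.92 CPM of NR1D1. Another clock gene, PER2, overlapped, with 43.9 and 62.9 CPM, against 44.9 and 29.4 CPM (0.52 ± 0.87). The hour of collection is not given in the labels. ALAS1 and the clock genes were chosen after their values were seen. The pancreatic protease precursor ctrb.1 had 113 and 186 CPM, against 26.9 and 8.52 CPM (3.08 ± 0.90). Its level in other shams was 0, 0.398 and 303 CPM at 1 dpi and 0 to 1174 CPM at 14 dpi. On that scale, set over all 21 libraries, 5 dpi resection had 109 and 171 CPM of ctrb.1.

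Proliferation genes had the highest list median after the sparse neutrophil and complement lists. Over 38 tested cell cycle genes the median log2 fold change was 1.44, beside 0.08 over all genes. It was 2.16 without sham 2, where all genes had 0.77, and 1.17 without sham 3, where all genes had 0.08. Both resection libraries lay above both shams in 18 of the 38 (47.4%) and below both in 2 (5.26%), beside 17.2% and 14.2% of all genes tested. Only STMN1 (ENSDARG00000033655) and CCNE2 had p under 0.05. The microtubule regulator STMN1, also abundant in neurons, had 14.0 and 77.3 CPM, against 0.340 and 4.54 CPM (4.22 ± 1.45), and the S phase cyclin CCNE2 had 3.12 and 0.479 CPM with no count in sham. The replication clamp PCNA had 104 and 39.0 CPM, against 36.0 and 8.35 CPM (1.69 ± 0.99), while the proliferation marker mki67 had 17.1 and 10.8 CPM, against 5.45 and 26.3 CPM.

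Several lower genes belong to heart muscle. The cardiac actin paralog actc1c had 324 and 279 CPM in resection, against 2793 and 5924 CPM in sham, and its log2 fold change was -3.85 ± 0.79 (edgeR adjusted p = 0.716, DESeq2 adjusted p = 0.0398). Without sham 2 and without sham 3 it was -4.22 and -3.22. Its main relative actc1a, by contrast, had 27269 and 16047 CPM, against 31685 and 7159 CPM. Lower in the same way were LMOD2, which elongates sarcomeric actin filaments, at 262 and 418 CPM, against 1266 and 1170 CPM (-1.84 ± 0.70), and the calcium release channel RYR2, at 532 and 617 CPM, against 1490 and 1846 CPM (-1.54 ± 0.68). AKAP6, which anchors protein kinase A at the nuclear envelope of muscle cells, had 2.13 and 6.31 CPM, against 76.3 and 63.8 CPM (-4.06 ± 1.07, DESeq2 adjusted p = 0.0422). In these 4 genes both shams lay above both resection libraries. For AKAP6 the shams of other days were low, on a CPM scale set over all 21 libraries. It had 0.824, 0 and 2.02 CPM in 1 dpi sham and 1.05 to 9.62 CPM in 14 dpi sham, beside 71.8 and 57.3 CPM in 5 dpi sham. Over all 30 tested cardiomyocyte genes, 1 was higher and 1 lower at p under 0.05 (3.33% each), and the median was -0.30. Over all genes tested, 0.746% were higher and 2.52% lower. Of the 30, 9 (30.0%) were below and 5 (16.7%) above both shams in both resection libraries, beside 14.2% and 17.2% of all genes tested. LMOD2 was chosen after its values were seen.

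The lowest p of the comparison belonged to si:ch211-214b16.4, an uncharacterised gene at 0.110 and 0.160 CPM in resection, against 31.8 and 296 CPM in sham, at least 938-fold lower, or at least 181.8-fold lower against sham 2 alone (edgeR adjusted p = 0.0881, DESeq2 adjusted p = 1.01e-09). The receptor gene tnfrsf14 had 0.918 and 1.28 CPM, against 30.9 and 59.6 CPM (-5.36 ± 1.27, DESeq2 adjusted p = 0.00164). Among transcription factors, the AP-1 subunit JUND had 15.8 and 24.4 CPM, against 90.0 and 153 CPM (-2.60 ± 0.86). ZBTB16, a zinc finger repressor chosen after its values were seen, had 8.41 and 8.31 CPM, against 120.0 and 50.4 CPM (-3.35 ± 0.97). The epidermal factor TP63 had 5.21 and 4.95 CPM, against 20.8 and 86.7 CPM (-3.40 ± 1.13). All 5 lay below both shams in both resection libraries. Shams of other days are given on a CPM scale set over all 21 libraries. There si:ch211-214b16.4 had 0.471, 24.9 and 1.33 CPM at 1 dpi and 0.398 to 18.2 CPM at 14 dpi, beside 29.9 and 267 CPM at 5 dpi. ZBTB16 had 5.37, 38.7 and 70.8 CPM and 0.0928 to 47.7 CPM, beside 113 and 45.3 CPM. By contrast tnfrsf14 had 69.7, 202 and 63.0 CPM and 4.81 to 128 CPM, beside 29.0 and 53.6 CPM.

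Lower endothelial and endocardial genes included a receptor and transcription factors. The VEGF receptor flt1 had 11.3 and 15.6 CPM, against 72.0 and 124 CPM (-2.87 ± 0.90). Its level in other shams was 6.27, 61.5 and 77.5 CPM at 1 dpi and 11.6 to 19.4 CPM at 14 dpi. On that scale, set over all 21 libraries, 5 dpi resection had 10.9 and 14.3 CPM. NFATC1, a factor of the endocardium and valves, had 7.27 and 8.95 CPM, against 24.1 and 114 CPM (-3.09, and -1.58 without sham 3), and FLI1 had 8.59 and 17.6 CPM, against 22.5 and 157 CPM (-2.78, and -0.79 without sham 3), so both were led by sham 3. The junction gene cdh5 had 115 and 102 CPM, against 118 and 50.8 CPM, and kdrl had 22.7 and 21.8 CPM, against 56.0 and 6.93 CPM, both overlapping. Of 23 tested genes of the list 3 were lower and none higher at p under 0.05, with a median of -0.30. The median was 0.06 without sham 2, where all genes had 0.77, and -0.62 without sham 3, where all genes had 0.08. In 7 (30.4%) both resection libraries lay below both shams and in 1 (4.35%) above, beside 14.2% and 17.2% of all genes tested.

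For other genes with the lowest p sham 3 lay far above sham 2, and the difference was smaller without it. ACBD6 had 3.82 and 7.27 CPM in resection, against 11.8 and 311 CPM in sham, and its log2 fold change of -4.87 became -1.10 without sham 3. For cables2a, at 0.257 and 0.559 CPM, against 0.729 and 112 CPM, it was -7.12 with both shams and -0.85 without sham 3. The genes si:dkey-7i4.12, si:dkey-224e22.2, tmt1a.1, zbtb8b, CFAP68 and LIPT2, also among the 12 smallest p, were each more than 10 times higher in sham 3 than in sham 2, and in each both shams still lay above both resection libraries. Without sham 3 the log2 fold change was -4.59 for tmt1a.1 (-7.42 with both shams), -2.79 for zbtb8b (-5.97) and -2.11 for LIPT2 (-4.99). In the other 3 both resection libraries were at or under 3 counts. Against sham 2 alone si:dkey-7i4.12 was at least 11.4-fold lower in resection, si:dkey-224e22.2 at least 3.89-fold and CFAP68 at least 6.12-fold, beside at least 344-fold, 249.98-fold and 92.7-fold with both shams. The innate RNA sensor IFIH1, the 1 of 18 tested interferon response genes with p under 0.05, had 15.6 and 8.55 CPM, against 14.9 and 123 CPM (-2.52, and -0.30 without sham 3).

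**Figure D4:**
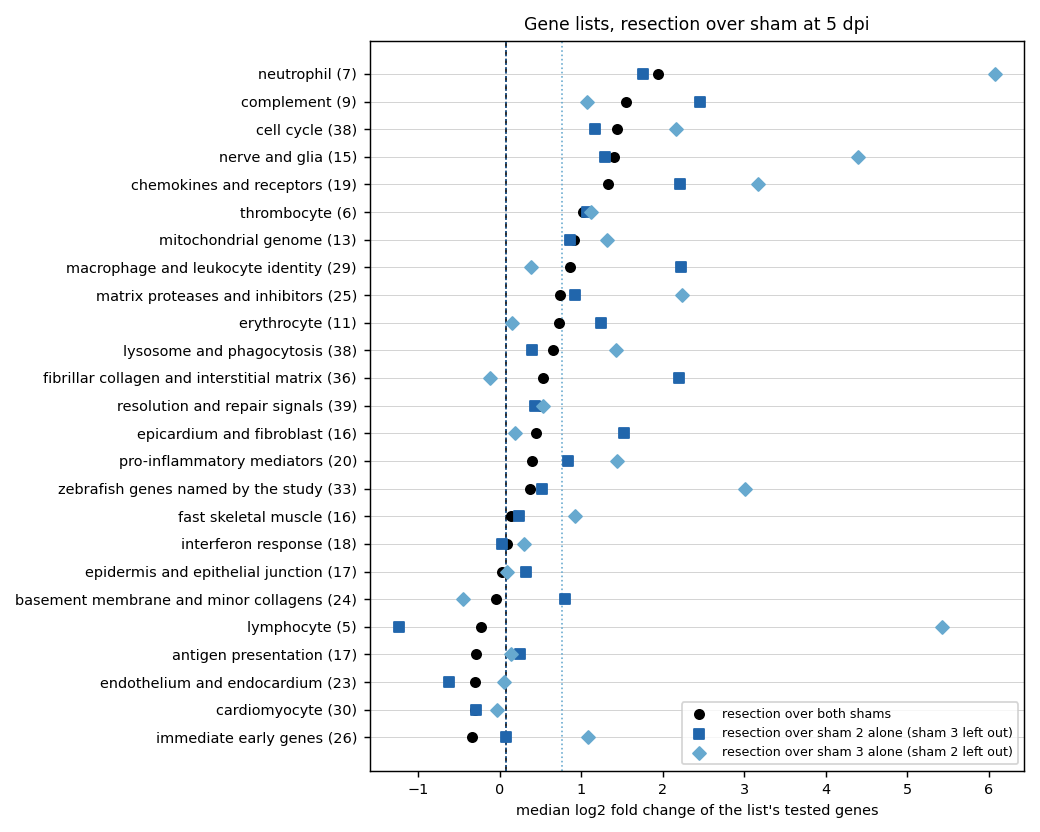
Median log2 fold change of resection over sham for each gene list, computed against both shams, against sham 2 alone (without sham 3) and against sham 3 alone (without sham 2). Vertical lines mark the median over all genes tested, which is 0.08 with both shams and 0.77 against sham 3 alone, and numbers in brackets are tested genes. The fibrillar matrix list lies at 0.54, 2.19 and -0.12 in that order, while the cell cycle list lies at 1.44, 1.17 and 2.16.

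The mitochondrial genome encodes subunits of the respiratory chain, and its 13 genes summed to 52341 and 21458 CPM in resection, against 18364 and 17629 CPM in sham, with a median log2 fold change of 0.91. None had p under 0.05 by edgeR. The cytochrome oxidase subunit MT-CO1 had 14466 and 6017 CPM, against 4412 and 4349 CPM (1.23), so resection 1 stood out. The epidermis and fast skeletal muscle lists, chosen to mark tissue outside the heart, had medians of 0.03 and 0.14, with 0 higher and 1 lower of 17, and 0 of 16, at p under 0.05. The immediate early gene list had a median of -0.33 over 26 tested genes, with JUND as the 1 gene with p under 0.05, and the antigen presentation list had -0.29 over 17, with none. Without sham 2, where all genes had a median of 0.77, these medians were 1.08 for the immediate early genes and 0.14 for antigen presentation. Without sham 3, where all genes had 0.08, they were 0.08 and 0.25. The thrombocyte list (6 tested genes, median 1.03) and the lymphocyte list (5 tested genes, median -0.23, with 5.43 without sham 2 and -1.23 without sham 3) had no gene with p under 0.05. Of 33 tested genes that the study itself named, none was higher and 1 was lower at p under 0.05, a list that the study chose on these samples and that is no independent evidence of direction.

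To see whether the 5 dpi differences matched those at 1 dpi, the resection effect at 5 dpi was set against that of 3 resection and 3 sham libraries at 1 dpi, which share no library with it. Of 19166 genes tested for a difference between the effects, edgeR called 0 (0.0%) in either direction, with 671 (3.5%) more positive and 2004 (10.5%) more negative at 5 dpi at an unadjusted p under 0.05. DESeq2 called 97 (0.556% of 17431) and 1279 (7.34%). Values across days are on a CPM scale set over all 21 libraries. At 1 dpi actc1c had 939, 810 and 717 CPM in resection, against 8759, 2923 and 6955 CPM in sham, so its groups did not overlap on either day (difference of effects -0.82, edgeR adjusted p = 0.681). The same held for olmf4l1, an olfactomedin, with 21.1, 28.5 and 24.3 CPM in 1 dpi resection and no count in 1 dpi sham, beside 24.2 and 10.1 CPM in 5 dpi resection and no count in 5 dpi sham. For alas2 the 1 dpi values were 275, 487 and 136 CPM, against 27.3, 68.3 and 9.24 CPM. Of the 115 genes higher at 5 dpi, 27 (23.5%) had every 1 dpi resection library above every 1 dpi sham, beside 22.7% of all genes tested. Of the 388 lower genes, 15 (3.87%) had every 1 dpi resection library below every 1 dpi sham, beside 10.0% of all genes tested. The higher genes that overlapped on neither day include apoeb, c1qc and the mitotic genes KPNA2 and TRIP13, and the lower ones LMOD2 and the dystrophin relative utrn. Among the 388 lower genes, 92 (23.7%) had every 1 dpi resection library above every 1 dpi sham, as did 22.7% of all genes tested.

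**Figure D5:**
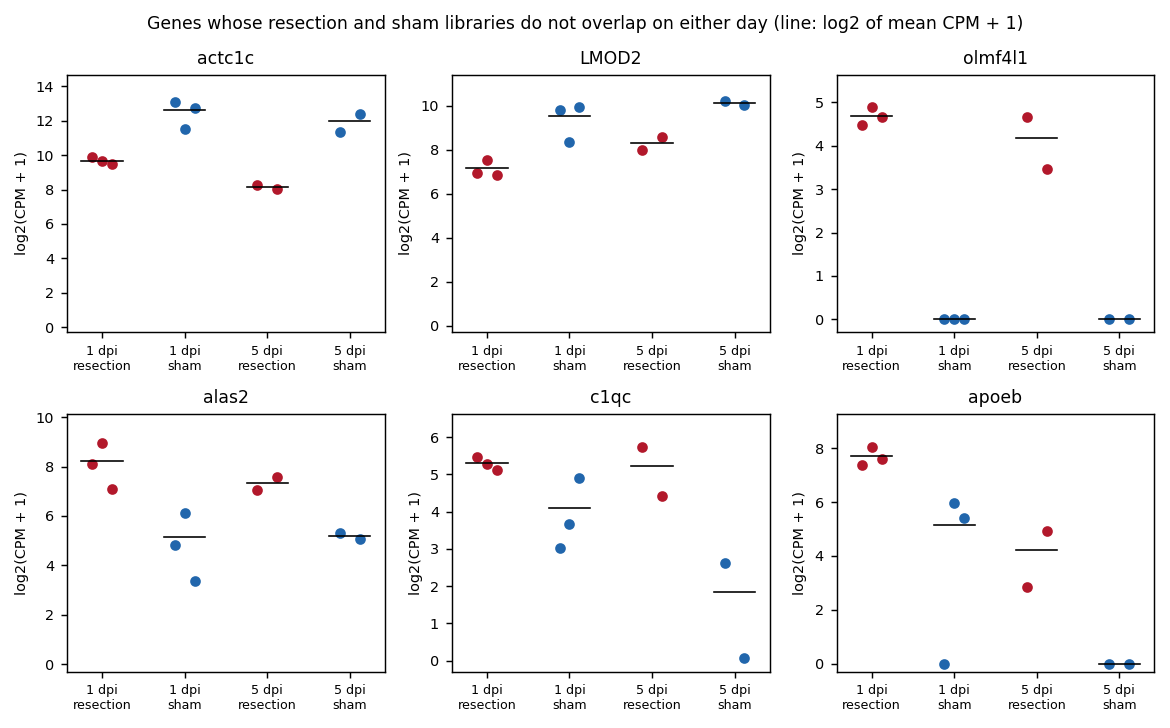
Level in each library, as log2(CPM + 1) on the scale set over 21 libraries, of actc1c, LMOD2, olmf4l1, alas2, c1qc and apoeb at 1 dpi and 5 dpi, with resection left of sham on each day and a line at the mean CPM of each group. In all 6 genes resection and sham libraries do not overlap on either day. They were picked because they did not overlap, so this shows levels and is no test.

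For other genes the 2 days gave unlike values, though no difference passed the adjusted test. RSPO3 had 7.38, 7.23 and 22 CPM in 1 dpi resection, against 25.8, 72.1 and 6.18 CPM in 1 dpi sham, and the difference of its effects was 5.87 (edgeR adjusted p = 0.283). For cxcl12a the 1 dpi values were 24.1, 44.3 and 35.6 CPM, against 14.2, 303 and 127 CPM (difference 5.21, edgeR adjusted p = 0.278), and for hsp90aa1.1 they were 137, 89.1 and 132 CPM, against 296, 459 and 74.0 CPM (difference 4.15, edgeR adjusted p = 0.278). At 1 dpi the resection values of these 3 genes overlapped the sham values, and at 5 dpi they lay above them. MYL7, the atrial and ventricular regulatory light chain of zebrafish, had 4537, 4102 and 4400 CPM in 1 dpi resection, against 14683, 25613 and 63073 CPM in 1 dpi sham. At 5 dpi it had 15826 and 7644 CPM, against 15029 and 5440 CPM (difference 3.26, edgeR adjusted p = 0.278). Like it, the mitochondrial gene MT-ND2 had 418, 462 and 531 CPM, against 1803, 1610 and 7844 CPM at 1 dpi (difference 4.46, edgeR adjusted p = 0.257), and the median difference over the 13 mitochondrial genes was 4.03, beside -0.14 over the genes tested at 5 dpi. Epidermal keratin krt5 had 1158, 2224 and 1682 CPM in 1 dpi resection, against 1.1, 0.0173 and 0.0578 CPM in 1 dpi sham. At 5 dpi it was at 0.0707 and 0.882 CPM, against 0.183 and 0.153 CPM (difference -10.65, edgeR adjusted p = 0.172). The myelin genes were not particular to resection, since 1 library of 1 dpi sham held 87.3 CPM of mbpa and 108 CPM of mpz.

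Resection was last compared with cryoinjury, in which part of the ventricle is frozen, at the same 5 dpi. In a fit of 2 resection and 2 cryoinjury libraries without sham, edgeR called 0 of 14709 genes (0.0%) in either direction. At an unadjusted p under 0.05 it gave 565 (3.84%) higher and 198 (1.35%) lower, and DESeq2 called 163 (1.07% of 15206) and 87 (0.572%). Without cryoinjury 4 edgeR called 1437 genes, and without cryoinjury 1 it called 111. The arginase ARG2 had 57.8 and 129 CPM in resection, against 3.82 and 7.23 CPM in cryoinjury, and the lactate transporter SLC16A3 had 344 and 207 CPM, against 42.2 and 45.2 CPM. Heme synthesis gene ALAS1 had 4703 and 2347 CPM, against 428 and 122 CPM. The growth factor hbegfb had 16.7 and 5.07 CPM, against 53.6 and 82.0 CPM (edgeR adjusted p = 0.869), and marco had 13.1 and 3.75 CPM, against 61.3 and 44.5 CPM (edgeR adjusted p = 0.869). Genes that differed from 5 dpi sham after resection were in part at a like level after cryoinjury. Among them nppb had 606 and 165 CPM, against 235 and 258 CPM, a log2 difference of 0.73 (edgeR adjusted p rounding to 1). In the same way actc1c had 312 and 257 CPM, against 196 and 741 CPM (-0.64), and olmf4l1 had 24.2 and 10.1 CPM, against 15.2 and 21.7 CPM. For nppb, actc1c and olmf4l1 the injury groups overlapped, and a p near 1 does not show that they are alike. A high nppb level was not particular to injury. The 1 dpi shams held 681, 524 and 512 CPM and the 14 dpi shams 108 to 174 CPM, beside 41.6 and 38.1 CPM in the 5 dpi shams.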

How the data were processed

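Nuclear total RNA of biotagged macrophages was amplified with a SMART-seq low input kit, which does not mark strand although the labels give one, so antisense and overlapping genes cannot be told apart. Per the labels, the authors ran STAR 2.4.2a against danRer10 and obtained counts per gene with featureCounts, and the study used DESeq2. The deposited values were raw counts of 31953 genes in 23 columns, of which 2 were not used because they match no sample, and 1 gene with missing values was left out. Of the genes, 26305 had a name, taken from the study's supplementary table or from a table of gene IDs. Each sample is 1 heart by the study's methods, and the depth of each library is given above.

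Counts were normalised with TMM and filtered with filterByExpr, and 15423 genes were tested (two-sided) with edgeR 4.0.16 (R 4.3.3, limma 3.58.1), with Benjamini-Hochberg adjustment over all of them at 0.05. The spread rests on 2 libraries per group. CPM is TMM-scaled, correlations used log2(CPM + 1), and folds against a group at or under 3 counts per library were computed against that floor. Alternatives were DESeq2 1.42.0, its size factors, no filter, a minimum of 10 counts, fits over the 6 libraries of 5 dpi and over all 21, leaving out each library and, added after seeing the data, the replicate number as a block in the comparison of days. The fits were tested on simulated data, in which, at the spread of these libraries, edgeR missed most changed genes and DESeq2 made more false than true calls, so DESeq2's calls are to be read with that in mind.

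The comparison, the gene lists and the members named were chosen with earlier results of these data known. Named were the 12 genes with the smallest p per direction, up to 4 members of each of 25 lists per direction with p under 0.05 and the first 4 measured members, and genes the study names. The genes ALAS1, BHLHE40, NR1D1, PER2, ITGA8, ZBTB16, LMOD2, FN1, actc1a, nppa, SLC5A7, SLC18A3, CHAT, ARG2, SLC16A3, KPNA2, TRIP13, utrn, hsp70.1, HSPA2, hsp70.3, hsp70l and MT-CO1 fall outside that rule and were chosen after their values were seen. No sequence is printed.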

Additional observations from a re-analysis of the deposited data

How the results depend on the processing

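Over 44 named genes, 431 pairs of gene and alternative could be computed. Of these 365 kept their direction and side of the threshold, 60 kept their direction and passed it, and 6 changed sign, which were col1a1a (-0.20 without sham 2, 2.29 without sham 3), COL1A2 (-0.30 and 2.2), col5a3a (-3.06 and 0.24), SYT1 (-3.72 and 0.57), marco (-3.57 to 0.72 with a library left out) and il6r (-8.38 to 1.76). Genes higher in resection at 5 dpi (0 by edgeR) numbered 48 by DESeq2 and 9 without a filter, and genes lower (0) numbered 107 by DESeq2, 1 with its size factors, 37 without a filter and 1 in the fit over 6 libraries. Leaving out 1 library gave 1 to 895 higher and 0 to 704 lower genes, the highest without sham 2, when the lone sham is assumed to vary like the resection libraries. Genes whose resection effect differed between 5 and 1 dpi (0) numbered 1376 by DESeq2, 180 without a filter and 0 to 2 with a library left out. Genes that differed between resection and cryoinjury (0) numbered 250 by DESeq2, 60 without a filter and 30 to 1437 with a library left out. The cause of these differences was not tested. The 1 dpi groups share 2 replicate numbers, so the difference between days was also fitted with the number within each day as a replicate block, added after seeing the data. It called 3 genes, with 1 residual degree of freedom. The deviations of same-numbered libraries from their group means had r of -0.0086, -0.0068 and -0.0426 across genes. At 5 dpi the deviations of the 2 libraries of a group mirror each other, so all pairs there give the same size of r. These values cannot show whether same-numbered libraries share more than a number. No paired analysis was possible because fewer than 2 numbers are shared between resection and sham at 5 dpi (number 2) and between resection and cryoinjury (number 1). Depth limits genes near 3 counts.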
